A study of Mus musculus with 6 samples.

Results

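The insulin-like growth factor (IGF) axis was examined in caudal arteries, the main arteries of the tail, of mice that lack the receptor gene Notch3. The set holds 10 genes, 2 ligands, 2 receptors and 6 binding or related proteins, of the 18193 genes named on the array. They were read from the 28 probe sets whose only gene symbol is one of the 10. Arteries of Notch3-/- mice (3 pools) were compared with those of Notch3+/+ mice (3 pools), all at 4 weeks of age (P28). Each Notch3-/- pool held arteries of 4 mice, and the Notch3+/+ pools held 4, 3 and 3 in replicates 1 to 3. The labels give neither the targeted allele nor the strain or sex, and the whole dissected vessel was used, so all of its cell types contribute RNA. Each value is on the log2 scale, so a difference of 1 is a doubling of signal.

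IGF1 and IGF2 are secreted growth factors that act through the receptor tyrosine kinase encoded by Igf1r. Igf2r encodes the cation-independent mannose 6-phosphate receptor, which carries IGF2 to lysosomes for breakdown. The IGF binding proteins hold the ligands with high affinity outside the cell and can limit or prolong their action, and proteases release the ligands again. Smooth muscle cells of arteries respond to IGF1 with growth and survival and make several of the binding proteins themselves.

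The family was chosen by the measured rise of Igfbp2, one of the most increased genes of this same comparison. Its values, and those of its relatives in that comparison, are therefore given as a description. The adjusted p of a relative, from limma over all 27027 probe sets tested, is given to say whether it passed 0.05 after correction for all of them. An adjusted p above 0.05 does not place a difference within the spread between pools. The adjusted p is not independent evidence about the family.

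Igfbp2 lies directly beside Igfbp5 in the mouse genome, with no protein-coding gene between them. The 250 bases before the start of each are shown because one gene of this adjacent pair passed the test and the other did not. They are from RefSeq, GRCm38.p6, at chr1:72824230-72824479 on the plus strand for Igfbp2 (the upstream of its 2 listed starts) and chr1:72874866-72875115 on the minus strand for Igfbp5. Capitals mark matches, on either strand, to 5 motifs: the E-box CACGTG, the N-box CACNAG, the GC box GGGCGG, the core TGGGAA of the motif of RBPJ (the DNA-binding partner of Notch) and the TATA motif TATAAA. No matches overlapped in the sequences shown.
Igfbp2: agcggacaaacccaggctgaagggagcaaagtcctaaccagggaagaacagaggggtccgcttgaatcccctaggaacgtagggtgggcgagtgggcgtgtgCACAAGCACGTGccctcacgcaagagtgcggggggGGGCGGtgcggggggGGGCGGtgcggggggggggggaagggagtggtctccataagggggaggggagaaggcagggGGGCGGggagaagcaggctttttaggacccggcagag
Igfbp5: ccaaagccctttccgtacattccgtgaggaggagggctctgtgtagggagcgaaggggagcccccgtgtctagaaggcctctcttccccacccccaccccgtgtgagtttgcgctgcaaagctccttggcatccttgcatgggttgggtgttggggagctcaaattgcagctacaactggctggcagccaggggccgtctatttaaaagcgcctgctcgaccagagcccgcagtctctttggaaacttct
The Igfbp2 sequence held 1 N-box at -148, 1 E-box directly after it at -142, and 3 GC boxes at -113, -98 and -37, counted from the start to the first base of each. The Igfbp5 sequence held no match to any of the 5. Of all 32851 promoter windows of this length, 6.02% held an E-box, 36.7% an N-box, 32.7% a GC box, 21.6% the RBPJ core and 12.4% TATAAA. In these windows the RBPJ core was found before Igf1 and before 2 of the 4 listed starts of Igf2. The E-box was found in 2 of the 10 genes, Igfbp2 and Igf2r. GC boxes were also found before Igf1r, Igf2, Igf2r and Igfbp7, and N-boxes before Igf2 and Igf2r, genes that did not pass. TATAAA was found before Igfbp4 and Igfbp6. The other listed start of Igfbp2 had an N-box but no E-box or GC box. A match is a run of letters and does not show that a factor binds there.

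As a check of the labels, the brighter Notch3 probe set read 6.51, 6.44 and 5.87 in Notch3-/- pools, against 9.94, 9.95 and 10.09 in Notch3+/+ pools. The 6 arrays correlated across probe sets at r between 0.978 and 0.994. Notch3-/- replicate 2 stood apart on the first principal component, at 39.5, against -17.1 to 5.85 for the other 5 arrays. Differences without that pool are therefore given beside those of several members.

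Igfbp2, which encodes a secreted protein that binds both IGFs, was higher in every Notch3-/- pool. Its only probe set, 1454159_a_at, read 10.87, 10.46 and 11.01 in Notch3-/- pools, against 9.40, 9.29 and 9.58 in Notch3+/+ pools. The lowest Notch3-/- pool, replicate 2, lay above the highest Notch3+/+ pool, replicate 3, and the groups did not overlap. The means were 10.78 ± 0.29 in Notch3-/- and 9.42 ± 0.15 in Notch3+/+ arteries (SD, n = 3 each). The difference of 1.36 (SE 0.15, 95% interval 1.00 to 1.71) is a 2.56-fold higher level in Notch3-/- arteries. It was the 11th largest positive change among 12732 genes tested, in the order of their log2 changes.

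Igfbp2 was the 1 probe set of the family that passed an adjusted p of 0.05 in limma, of 27 tested. Over all probe sets 68 of 27027 passed, or 0.252%, and 0.137% passed as higher in Notch3-/- arteries. Its adjusted p was 0.0196 with all arrays and 0.0130 without Notch3-/- replicate 2, when the difference was 1.52. The call was lost without any one of the other 5 arrays, as the adjusted p was then above 0.05. Leaving out Notch3-/- pools gave 0.0696 for replicate 1 and 0.119 for replicate 3. Leaving out Notch3+/+ pools gave 0.0837 for replicate 1, 0.167 for replicate 2 and 0.0959 for replicate 3. The difference itself stayed between 1.24 and 1.52 whichever array was left out.

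**Figure D1:**
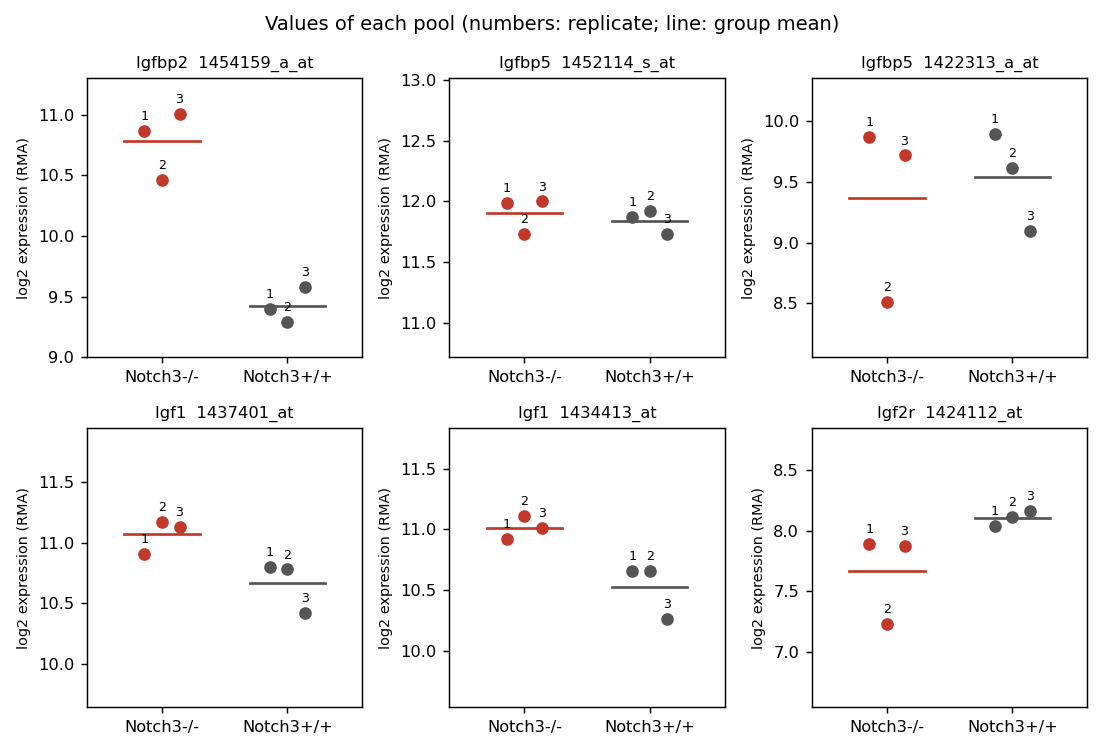
Log2 expression in each pool (points numbered by replicate) with the group mean (line), Notch3-/- left of Notch3+/+, for 6 probe sets, each axis spanning the same log2 range. The groups are apart for Igfbp2, by less for both Igf1 probe sets and Igf2r 1424112_at, and they overlap for both Igfbp5 probe sets.

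Igfbp5, the neighbour of Igfbp2, encodes a binding protein that also attaches to extracellular matrix. Its brighter probe set, 1452114_s_at, read 11.99, 11.73 and 12.00 in Notch3-/- pools, against 11.87, 11.92 and 11.73 in Notch3+/+ pools. The groups overlapped, and the difference was 0.07 (95% interval -0.17 to 0.31, adjusted p = 0.827), an interval that does not reach the 1.36 of Igfbp2. Without Notch3-/- replicate 2 it was 0.16 (adjusted p = 0.616). The second probe set, 1422313_a_at, read 9.87, 8.51 and 9.72 in Notch3-/- pools, against 9.90, 9.62 and 9.10 in Notch3+/+ pools. This probe set had the widest spread of the family, with a within-genotype SD of 0.60, larger than that of 99.7% of all probe sets tested. Its difference was -0.17 (95% interval -1.02 to 0.68, adjusted p = 0.877), but its sign turned in some settings. It was 0.26 without Notch3-/- replicate 2, 0.01 without Notch3+/+ replicate 1 and 0.08 with limma's array weights. The suffixes differ: by the maker's naming, an s_at set can match several transcripts and an a_at set the variants of 1 gene.

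Igfbp4, a binding protein that mostly restrains IGF action, was read by 6 probe sets and did not pass on any of them. Its brightest, 1437405_a_at, read 12.12, 12.07 and 12.06 in Notch3-/- pools, against 12.00, 12.06 and 12.10 in Notch3+/+ pools. The difference was 0.03 (95% interval -0.14 to 0.20, adjusted p = 0.897), with a within-genotype SD of 0.04 that was smaller than that of most probe sets. All 6 probe sets lay between -0.07 and 0.13. On 1 of them, 1437406_x_at, the groups did not overlap, at 11.74, 11.74 and 11.84 in Notch3-/- pools against 11.57, 11.65 and 11.72 in Notch3+/+ pools (adjusted p = 0.580). By the maker's naming, an x_at set can cross-hybridise with other transcripts. Without Notch3-/- replicate 2 the 6 differences lay between 0.01 and 0.17, and 1423757_x_at, at -0.07 with all pools, was the one at 0.01.

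Igfbp3, which encodes the main carrier of IGFs in blood, gave opposite signs on its 2 probe sets. The difference was -0.18 (95% interval -0.46 to 0.10, adjusted p = 0.598) on 1458268_s_at and 0.13 (95% interval -0.10 to 0.35, adjusted p = 0.642) on 1423062_at. On 1458268_s_at the pools read 9.15, 8.92 and 9.35 in Notch3-/- arteries, against 9.39, 9.24 and 9.33 in Notch3+/+ arteries. The groups overlapped on both probe sets, and no direction can be given for Igfbp3. Without Notch3-/- replicate 2 the differences were -0.07 on 1458268_s_at and 0.10 on 1423062_at.

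Igfbp6, which encodes a binding protein with a preference for IGF2, read 8.02, 7.56 and 8.16 in Notch3-/- pools, against 8.13, 7.89 and 7.73 in Notch3+/+ pools. The group means were level, with a difference of -0.003 and a 95% interval from -0.40 to 0.40 (adjusted p = 0.995). Without Notch3-/- replicate 2 the difference was 0.17 (adjusted p = 0.711).

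Igfbp7 encodes a related secreted protein with only low affinity for IGFs, and its 3 probe sets read -0.16, -0.10 and -0.11. On the brightest, 1423584_at, the pools read 12.35, 12.19 and 12.33 in Notch3-/- arteries, against 12.37, 12.45 and 12.52 in Notch3+/+ arteries. The groups did not overlap there, yet the difference did not pass (95% interval -0.35 to 0.04, adjusted p = 0.530). Without Notch3-/- replicate 2 the Igfbp7 differences were -0.11 on 1423584_at, -0.15 on 1423585_at and -0.23 on 1437804_at.

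**Figure D2:**
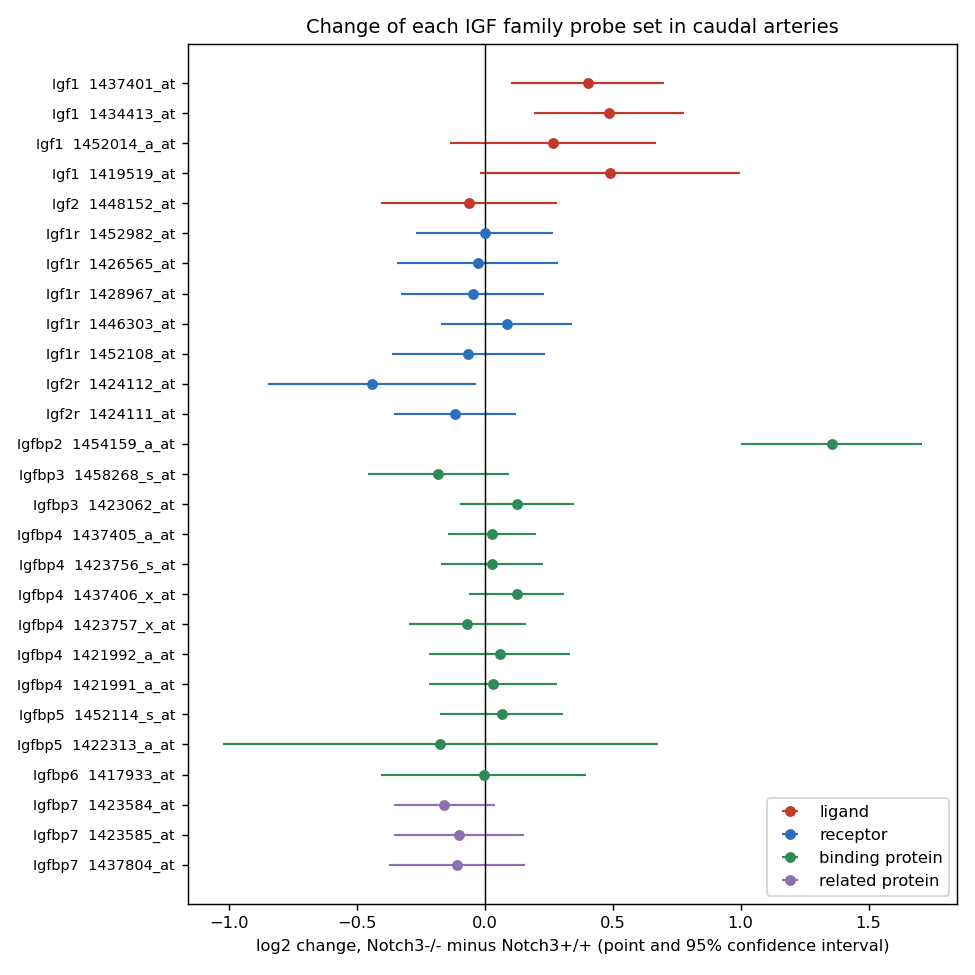
Log2 change, Notch3-/- minus Notch3+/+, with its 95% confidence interval from limma for the 27 tested probe sets of the family, coloured by role. Igfbp2 stands at 1.36, the 4 Igf1 probe sets lie between 0.27 and 0.49, and the intervals of most other probe sets include 0.

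Igf1, the ligand gene, was positive on all 4 of its probe sets, but none passed in limma over all probe sets. The brightest, 1437401_at, read 10.91, 11.17 and 11.13 in Notch3-/- pools, against 10.80, 10.78 and 10.42 in Notch3+/+ pools. The next, 1434413_at, read 10.92, 11.11 and 11.01 in Notch3-/- pools, against 10.66, 10.66 and 10.26 in Notch3+/+ pools. On both of these the groups did not overlap, and Notch3+/+ replicate 3 was the lowest pool on all 4 probe sets. The differences were 0.40 (95% interval 0.11 to 0.70, adjusted p = 0.323) and 0.49 (95% interval 0.19 to 0.78, adjusted p = 0.240), or 1.32-fold and 1.40-fold. The dimmer probe sets 1419519_at and 1452014_a_at gave 0.49 and 0.27, with adjusted p of 0.461 and 0.592. On both the groups overlapped, with Notch3+/+ replicate 1 among the Notch3-/- pools, and on 1452014_a_at also Notch3+/+ replicate 2. Without Notch3+/+ replicate 3 the 4 differences were smaller, at 0.28 and 0.35 on the brighter pair and 0.28 and 0.09 on the dimmer pair, in the order given. The 4 probe sets read the same RNA of the same pools, so their shared sign is 1 observation and not 4.

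Markers of fibroblasts and macrophages, cells that can make Igf1, had positive differences, of which 1 passed. All 10 adventitial fibroblast markers tested were positive, with a median of 0.15, and 1 of them, the matrix protein gene Dpt, passed (0.58, adjusted p = 0.0499). The unadjusted p was under 0.05 for 4 of the 10, against 11.9% of all 12732 genes, of which 0.322% passed. The mean log2 level of that list was 10.81 to 10.91 in Notch3-/- pools, against 10.53 to 10.70 in Notch3+/+ pools, with Notch3+/+ replicate 3 lowest. All 12 macrophage markers were positive, with a median of 0.46 and 0 passing in limma (6 at an unadjusted p under 0.05). Their mean level was 7.25 to 7.71 in Notch3-/- pools, against 6.59 to 7.34 in Notch3+/+ pools, again with Notch3+/+ replicate 3 lowest. The part of these cells in the Igf1 values was not tested. In a whole vessel, more cells of a type and more RNA per cell cannot be told apart.

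The other marker lists are given for the rest of the vessel and its surroundings. The 10 smooth muscle markers had a median of 0.04 and overlapping mean levels, 10.76 to 10.82 in Notch3-/- pools against 10.60 to 10.95 in Notch3+/+ pools. Single markers of that list went both ways. Without overlap of the groups, Actg2 (0.66) and Cnn1 (0.51) were higher in Notch3-/- pools and Smtn (-0.58) and Myocd (-0.39) lower. Over all 12732 genes, 9.46% were higher in Notch3-/- pools without overlap and 7.88% lower. Medians were -0.24 for 11 endothelial, -0.28 for 12 skeletal muscle, -0.18 for 7 Schwann cell and 0.05 for 4 chondrocyte and bone markers. Of these 5 lists 0 markers passed in limma, against 0.322% of all 12732 genes. The unadjusted p was under 0.05 for 4 smooth muscle, 4 endothelial, 3 skeletal muscle, 4 Schwann cell and 0 chondrocyte and bone markers. Over all genes an unadjusted p under 0.05 was found for 11.9%. Mean endothelial levels did not overlap, at 8.63 to 8.79 in Notch3-/- pools against 8.86 to 8.97 in Notch3+/+ pools. Mean Schwann cell levels did not overlap either, at 6.94 to 7.0 in Notch3-/- pools against 7.05 to 7.15 in Notch3+/+ pools. The skeletal muscle level spanned 5.83 to 6.76 in Notch3-/- pools against 6.40 to 6.69 in Notch3+/+ pools. The chondrocyte and bone level spanned 6.0 to 6.45 in Notch3-/- pools against 5.93 to 6.41 in Notch3+/+ pools, and 4 more of that list, Dmp1, Hapln1, Ibsp and Matn3, lay below the level filter. The defining smooth muscle and endothelial markers were all above that filter.

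Igf2, the second ligand gene, did not pass. Its bright probe set, 1448152_at, read 10.22, 9.72 and 10.27 in Notch3-/- pools, against 10.18, 10.07 and 10.14 in Notch3+/+ pools. Notch3-/- replicate 2 was the lowest pool and the other Notch3-/- pools were the highest. The difference was -0.06 (95% interval -0.40 to 0.28, adjusted p = 0.898), and 0.12 without Notch3-/- replicate 2 (adjusted p = 0.671). The other probe set, 1415931_at, averaged 3.59 ± 0.11 in Notch3-/- and 3.53 ± 0.13 in Notch3+/+ pools (SD, n = 3 each), below the filter at 3.83, and was not tested.

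Igf1r, the signalling receptor gene, did not pass on any of 5 probe sets. Its brightest, 1452982_at, read 8.77, 8.95 and 8.91 in Notch3-/- pools, against 8.71, 8.83 and 9.09 in Notch3+/+ pools. The means were equal at 8.88, and the 95% interval of the difference ran from -0.27 to 0.27 (adjusted p = 1.00). The other 4 probe sets differed by -0.06 to 0.09, with adjusted p of 0.781 or more. A difference in signal as large as that of Igfbp2 lies outside the intervals of all 5. The dimmest, 1452108_at, averaged 4.10, close to the filter at 3.83, where a change can be understated.

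Igf2r did not pass, and its differences were negative on both probe sets. The brighter, 1424112_at, read 7.89, 7.23 and 7.87 in Notch3-/- pools, against 8.04, 8.11 and 8.16 in Notch3+/+ pools. The groups did not overlap, and Notch3-/- replicate 2 was the lowest pool. The difference was -0.44 (95% interval -0.85 to -0.03, adjusted p = 0.411), and -0.22 without Notch3-/- replicate 2 (adjusted p = 0.429). The second probe set, 1424111_at, overlapped between the genotypes, at -0.12 (95% interval -0.36 to 0.12, adjusted p = 0.685). One more probe set, assigned to both Igf2r and the overlapping antisense transcript Airn, was not used as a member. Igf2r lies on chromosome 17, as Notch3 does, so alleles linked to the targeted locus and the loss of Notch3 cannot be told apart for it.

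**Figure D3:**
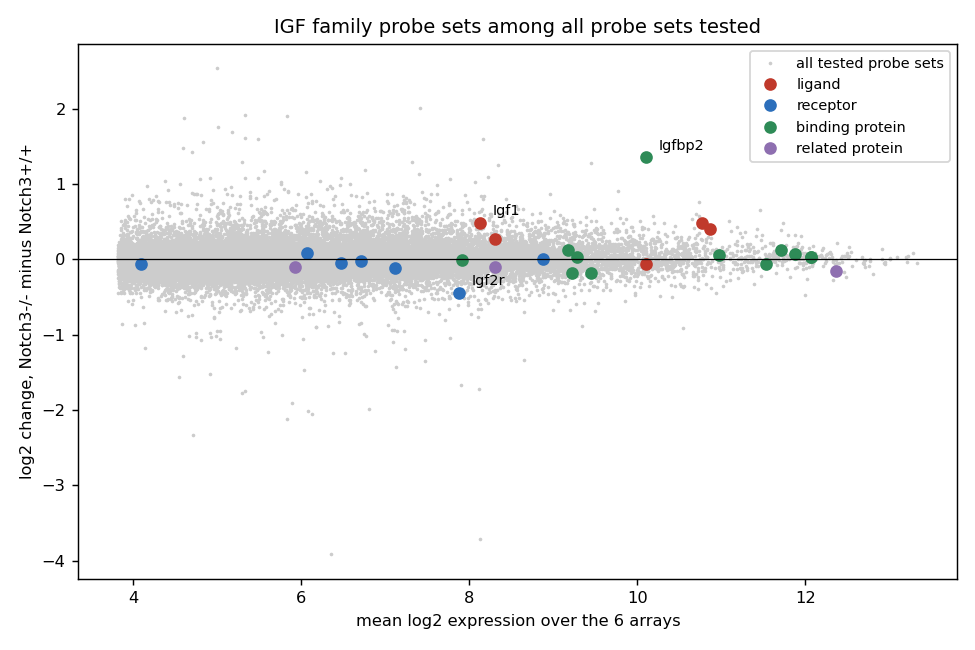
Log2 change, Notch3-/- minus Notch3+/+, against mean log2 expression over the 6 arrays for all 27027 tested probe sets (grey) and the 27 of the IGF family (coloured by role). Igfbp2 stands above the grey cloud at its level. The Igf1 points lie toward its upper side, Igf2r 1424112_at toward its lower side, and the remaining members lie within it.

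Across the 27 tested probe sets of the family the median change was 0.00, against -0.01 over all 27027 probe sets, and 13 were positive and 13 negative. The median size of the change, regardless of sign, was 0.10 for the family and 0.10 over all probe sets. An unadjusted p under 0.05 was found for 4 of 27, or 14.8%, against 11.4% of all probe sets. The 4 were Igfbp2, 2 of Igf1 and 1 of Igf2r. The groups did not overlap, with Notch3-/- higher, for 4 of 27, or 14.8%, against 8.43% of all probe sets. They did not overlap, with Notch3-/- lower, for 2 of 27, or 7.41%, against 7.75%. These shares include the values by which the family was chosen and are given only as a description.

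Notch3-/- replicate 2 was the single lowest pool on 10 of the 27 probe sets, or 37.0%, against 28.3% of all probe sets tested. These 10 belong to Igf2, both Igf2r probe sets, Igfbp3, 3 of Igfbp4, Igfbp5, Igfbp6 and Igfbp7. The same pool was the highest on both bright Igf1 probe sets. The median within-genotype SD was 0.16 for the family and 0.13 for all probe sets tested.

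**Figure D4:**
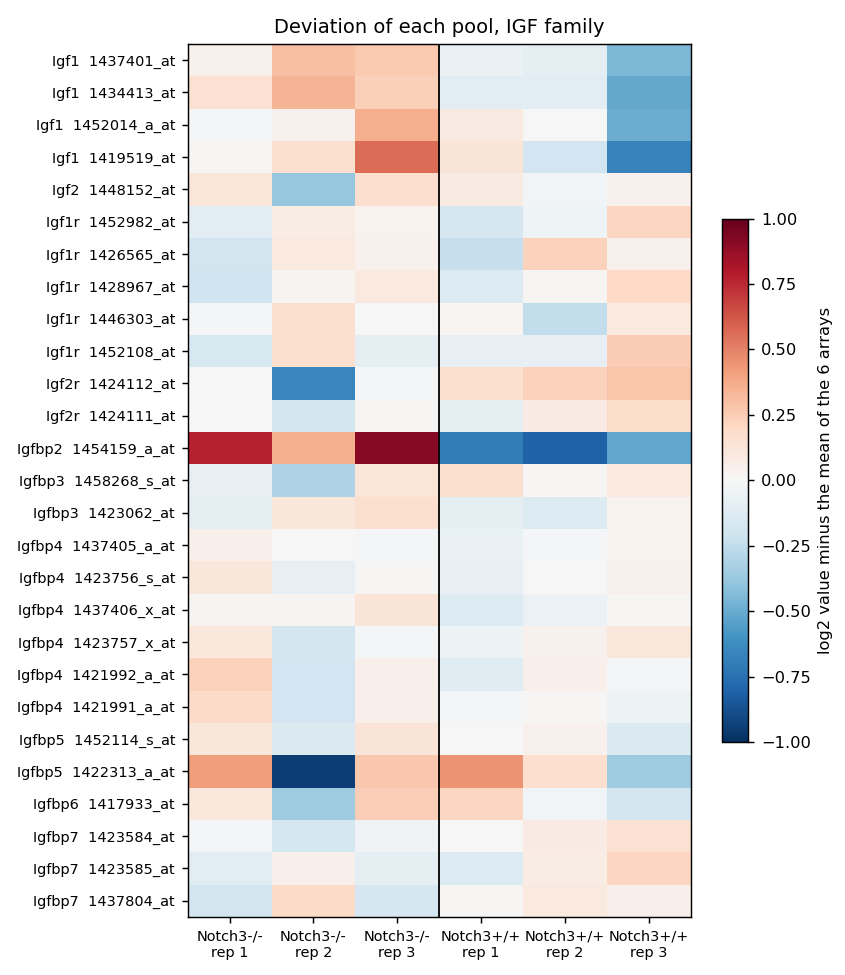
Log2 value of each pool minus the mean of the 6 arrays (colour) for the 27 tested probe sets of the family, Notch3-/- pools left of Notch3+/+ pools. Igfbp2 is red in all 3 Notch3-/- pools and blue in all 3 Notch3+/+ pools, Igf1 is lowest in Notch3+/+ replicate 3, and Notch3-/- replicate 2 is the lowest pool for Igfbp5 1422313_a_at, Igfbp6, Igf2 and Igf2r.

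The genes whose pattern was most like that of Igfbp2 over the 6 arrays, by Pearson's r on the brightest probe set, were Amh (0.990), Cntn6 (0.990), Pepd (0.990), Shld1 (0.988) and Pamr1 (0.988). The measure ignores size: Cntn6 was higher in Notch3-/- arteries by 0.94 (adjusted p = 0.0499) and Pamr1 by 0.87 (adjusted p = 0.0338). By contrast, Amh differed by 0.11 (adjusted p = 0.587), Shld1 by 0.15 (adjusted p = 0.469) and Pepd by 0.04 (adjusted p = 0.860). Amh read only 4.00 to 4.15 over the 6 arrays, close to the filter at 3.83. Pepd read 7.41 to 7.42 in Notch3-/- pools and 7.38 in every Notch3+/+ pool, so its r rests almost entirely on the genotype difference. Of 12730 genes compared, 123 had r over 0.9. For Igf1 the closest were Lppos (0.999), Slc38a2 (0.996), Clmp (0.995), Cstf2t (0.992) and Prrx1 (0.989), which differed by 0.20 to 0.38 without passing, and 342 genes had r over 0.9. These are descriptions over 6 arrays that share the genotype difference. Between Igfbp2 and Igf1 themselves r was 0.69, and between Igfbp2 and its neighbour Igfbp5 it was 0.41.

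Around the family, 49 genes that carry IGF signals, cut or carry binding proteins or process the ligands were listed, and 44 of them had a probe set of their own. The brightest probe set passed the level filter for 38. In limma 0 of the 38 passed in either direction, against 0.322% of all 12732 genes, and 0 passed on any of their 79 tested probe sets. An unadjusted p under 0.05 was found for 10 of the 38, or 26.3%, against 11.9% of all genes. With limma's array weights 978 of 27027 probe sets passed over the whole array, against 68 with equal weights. Of the 38 genes 4 passed there on their brightest probe set. They were the protease genes Plat (0.42) and Adam9 (0.31), the proprotein convertase gene Pcsk6 (-0.55) and the protease inhibitor gene Stc2 (-0.43). The median change was 0.05, with 23 positive and 15 negative, against -0.00 for all genes. The groups did not overlap with Notch3-/- higher for 8 of 38, or 21.1%, against 9.46% of all genes, and with Notch3-/- lower for 3, or 7.89%, against 7.88%.

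The list of proteases that cut the binding proteins and of their inhibitors held 6 of the 10 unadjusted p under 0.05. Those 6 were of 8 genes tested, against 11.9% of all genes. These were Adam9, Adam12, Pappa, Pappa2, Plat and the inhibitor gene Stc2. Of 11 genes in that list 8 were tested, 7 were positive and 1 negative, and the median was 0.37. The brightest of them, the protease gene Htra1, differed by 0.01 on 1416749_at (adjusted p = 0.979 in limma) and by 0.11 on 1438251_x_at. Plat, which encodes tissue plasminogen activator, read 8.06, 8.12 and 8.14 in Notch3-/- pools, against 7.65, 7.69 and 7.84 in Notch3+/+ pools (0.38, SE 0.08, adjusted p = 0.182). Adam9, a membrane metalloprotease gene, read 9.39, 9.54 and 9.39 in Notch3-/- pools, against 9.08, 9.11 and 9.04 in Notch3+/+ pools (0.36, SE 0.08, adjusted p = 0.182). Neither gene's groups overlapped, and neither difference passed over all probe sets.

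The pregnancy-associated plasma protein A genes and the stanniocalcin genes of that list are named here after their values were seen. PAPP-A, encoded by Pappa, cleaves IGFBP4 and releases its IGF, PAPP-A2 cleaves IGFBP3 and IGFBP5, and stanniocalcin 2, encoded by Stc2, blocks PAPP-A. Pappa 1427633_a_at read 5.97, 6.15 and 5.81 in Notch3-/- pools, against 5.63, 5.57 and 5.39 in Notch3+/+ pools, a difference of 0.45 (SE 0.11, adjusted p = 0.240). Its probe set 1432591_at gave 0.49 (adjusted p = 0.158). Pappa2 read 7.61, 7.35 and 7.22 in Notch3-/- pools, against 7.16, 6.84 and 6.78 in Notch3+/+ pools, a difference of 0.47 (SE 0.14, adjusted p = 0.296). On these 3 probe sets every Notch3-/- pool lay above every Notch3+/+ pool, as on 8.43% of all probe sets tested. Pappa 1432592_at, below the filter, overlapped with means of 2.73 in Notch3-/- and 2.87 in Notch3+/+ pools. The Pappa probe sets read the same RNA of the same pools, so they are not separate observations. Adam12, a membrane metalloprotease gene, gave 0.37 on its brighter probe set and 0.58 on the other (adjusted p = 0.438 and 0.416). The genotypes overlapped on the brighter probe set only.

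Stc2 had negative differences on all 3 of its probe sets, with no overlap between the genotypes. Its brightest, 1445186_at, read 5.81, 5.43 and 5.64 in Notch3-/- pools, against 6.17, 6.04 and 6.12 in Notch3+/+ pools, a difference of -0.48 (SE 0.11, adjusted p = 0.193). On 1449484_at it read 5.36, 4.66 and 5.08 in Notch3-/- pools, against 6.75, 5.79 and 5.64 in Notch3+/+ pools, a difference of -1.03 (SE 0.30, adjusted p = 0.292). That larger difference leans on Notch3+/+ replicate 1, the highest pool, and was -0.68 without it (adjusted p = 0.317). The remaining probe set, 1419503_at, gave -0.53 (adjusted p = 0.357), and -0.32 without that pool. Without Notch3-/- replicate 2 the differences were -0.385 on 1445186_at, -0.84 on 1449484_at and -0.49 on 1419503_at. None of these differences passed in the fit with all arrays weighted equally. The 3 probe sets read the same RNA of the same pools, so their shared sign is 1 observation and not 3. Over all probe sets tested, 7.75% were lower in Notch3-/- pools without overlap. The other stanniocalcin gene, Stc1, overlapped between the genotypes at 0.07 (SE 0.16, adjusted p = 0.896).

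**Figure D5:**
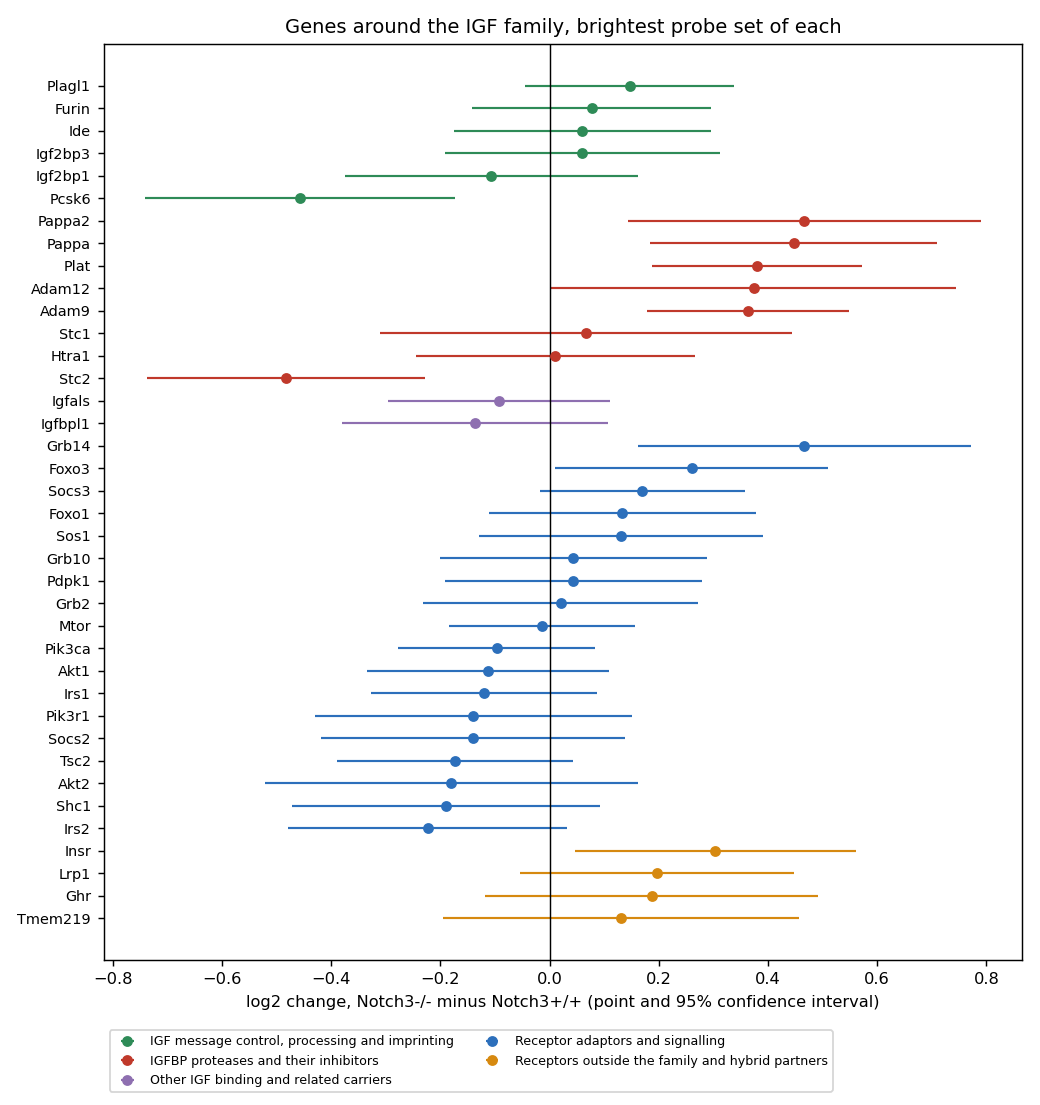
Log2 change, Notch3-/- minus Notch3+/+, with its 95% confidence interval from limma for the brightest probe set of the 38 tested genes around the family, coloured by list. The protease genes Pappa2, Pappa, Plat and Adam9 lie between 0.36 and 0.47, and Stc2 and Pcsk6 lie at -0.48 and -0.46. The protease gene Htra1 lies at 0.01 and the inhibitor gene Stc1 at 0.07.

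Signalling genes inside the cell had differences of both signs. Of 18 receptor adaptor and signalling genes tested, 8 were positive and 10 negative, with a median of -0.06 and 2 at an unadjusted p under 0.05. Those were Grb14, an adaptor that inhibits insulin-family receptors (0.47, SE 0.13, adjusted p = 0.266), and Foxo3, a transcription factor restrained by Akt (0.26, SE 0.11, adjusted p = 0.426). Grb14 read 7.35, 7.59 and 7.45 in Notch3-/- pools, against 6.73, 7.09 and 7.17 in Notch3+/+ pools, without overlap. Among the IGF1 receptor substrates, Irs1 differed by -0.12 and Irs2 by -0.22, and Akt1 by -0.11. Socs3, a feedback inhibitor of cytokine and insulin signalling, gave 0.17 on its brightest probe set, 0.54 on 1456212_x_at (adjusted p = 0.248) and 0.56 on 1455899_x_at (adjusted p = 0.0983). Both x_at sets passed with array weights, at adjusted p of 0.0222 and 0.00803, a setting that called 978 probe sets over the whole array. The 0.0983 was the lowest adjusted p of all 79 probe sets, and Socs3 was named after its values were seen, as were Irs1, Irs2 and Akt1.

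The remaining lists held few tested genes. The insulin receptor gene Insr, whose product can pair with that of Igf1r, gave 0.30 (SE 0.11, adjusted p = 0.376), and the endocytic receptor gene Lrp1 gave 0.20 (adjusted p = 0.536), with all 4 tested genes of that list positive and Insrr below the filter. Of the other carriers, Igfbpl1 gave -0.14 (adjusted p = 0.647) and Igfals, the acid-labile subunit of the circulating IGF complex, -0.09 (adjusted p = 0.701). Igfbp1, the protein-coding neighbour of Igfbp3, averaged 2.30 in Notch3-/- and 2.25 in Notch3+/+ pools, below the filter. Among 6 genes for message control, processing and imprinting, Pcsk6 read 6.55, 6.38 and 6.35 in Notch3-/- pools, against 6.64, 6.98 and 7.03 in Notch3+/+ pools. That is a difference of -0.46 (SE 0.12, adjusted p = 0.248), and the imprinted transcription factor gene Plagl1 gave 0.15 (adjusted p = 0.544).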

How the data were processed

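RNA of each pool was hybridised to an Affymetrix MOE430.2 chip, per the labels. The authors deposited 1 log2 value per probe set and array. The submitters' processing notes name RMA as the tool. That the scale is log2 follows from the range, 1.38 to 13.38. The version of RMA is not given in the sources used here. No scanner files or detection calls were used. Of 45101 probe sets, 64 chip controls were left out, and those with a mean over the 6 arrays below the 40th percentile (3.83) were not tested, which left 27027. The platform annotation gave 34945 probe sets 1 gene symbol, updated for 34741 through GRCm38.p6 RefSeq gene numbers. A gene was represented by its brightest probe set.

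Genotypes were compared with limma 3.58.1 in R 4.3.3 (lmFit and eBayes, genotype as the only term, two-sided, Benjamini-Hochberg over all 27027). The pools are biological replicates per the labels, and 3 per genotype limit precision. The fit was tested on simulated arrays. Members, lists and tests were chosen with earlier results of these data known. The naming rule took all members, the 2 smallest p of each of 5 pathway lists, called pathway genes and the 5 patterns most like Igfbp2 and Igf1. Marker lists covered 7 cell types. Alternatives were the filter, variance model, normalization, array weights, pool size, replicate number, threshold, probe set and omission of each array.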

Additional observations from a re-analysis of the deposited data

How the results depend on the processing

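Precision rests on 3 pools per genotype, and dim or nearly saturated probe sets understate differences. Igfbp2 kept its direction and passed in the 8 settings that kept all arrays, at 1.32 to 1.59 with adjusted p of 0.000520 to 0.0232. Leaving out 1 array gave 1.24 to 1.52 for Igfbp2, 0 to 1 family probe sets called, 0 pathway genes and 13 to 62 probe sets over the whole array. With all arrays that count was 68. Leaving out Notch3-/- pools gave 37 for replicate 2 and 17 for replicate 3, and leaving out Notch3+/+ pools gave 13 for replicate 2 and 23 for replicate 3. Array weights raised it to 978 and the pathway genes called to 4, and the reason was not tested. They gave Notch3-/- replicate 2 the lowest weight, 0.290. The highest were 3.04 for Notch3-/- replicate 3 and 2.94 for Notch3+/+ replicate 2, and the remaining arrays had 0.601 to 0.841. The weighted fit thus leaned mostly on 1 array of each genotype. An adjusted p under 0.10 gave 142. In no setting did one of the other 26 family probe sets pass in limma (lowest adjusted p 0.0619), though 29 of their 363 values, from 13 probe sets, were counted as of opposite sign. That count includes Igf1r 1452982_at, whose group means were equal with all arrays, so it had no sign to turn.

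The sample titles number replicates 1 to 3 in both genotypes, whereas codes in the descriptions number the Notch3-/- pools 1, 2 and 4 and the Notch3+/+ pools 1, 3 and 4. By title, deviations of same-numbered pools correlated at 0.24, 0.05 and -0.07, so the numbers were not taken as pairs. With the replicate number as a block, 57 probe sets and 0 pathway genes passed, and Igfbp2 stayed at 1.36.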
